A study of Drosophila melanogaster with 30 samples.

Results

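kl-2, kl-3 and kl-5 are the genes for axonemal dynein heavy chains that lie on the Y chromosome of Drosophila melanogaster. Their rows were found by FlyBase symbol and make up 3 of the 16868 genes in the count files, and 3 of the 20 annotated protein-coding Y genes that have a row there. RNA with poly(A) tails was sequenced from 30 libraries in 15 groups of 2. Whole bodies and gonads came from 2-day-old adults, and larval CNS (central nervous system) was taken from third-instar females. Female body, ovary and CNS were each taken from X^X controls and from females with an added Y chromosome, labelled X^X/Yohio and X^X/Ycongo. Male body and testis were each taken from X^Y controls and from males with a second Y, X^Y/Yohio and X^Y/Ycongo. The groups are written XX, XXYohio, XXYcongo, XY, XYYohio and XYYcongo below. All strains are described as made by genetic manipulation for Y aneuploidy, and the labels do not say which Y the XY controls carry. The labels number 2 replicates in each group and do not say how many animals went into each.

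Axonemal dyneins are the motors that bend the sperm tail, and the heavy chain is the subunit that hydrolyses ATP and walks on microtubules. In flies the kl ("male fertility") genes were named for the sterility of males that lack them: kl-3 and kl-5 encode heavy chains of the outer dynein arm, and kl-2 encodes an inner-arm heavy chain. They are transcribed in primary spermatocytes from very long genes with large introns rich in repeats, and kl-3 and kl-5 form the giant lampbrush-like Y loops of these cells.

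In the Ensembl annotation of BDGP6.54, kl-2 (FBgn0001313) lies on the plus strand at Y:573088-664173, with 12 exons and a largest intron of 39011 bases. kl-3 (FBgn0267432) lies on the plus strand at Y:336381-563165, with 16 exons and a largest intron of 120259 bases. kl-5 (FBgn0267433) lies on the minus strand at Y:22250-137486, with 17 exons and a largest intron of 53833 bases. The genes span 91086, 226785 and 115237 bases, while their coding lengths are nearly equal at 13377, 13779 and 13677 bases. The annotation places 3 transposable element entries inside kl-2, and 1 such entry and the opposite-strand pseudogene CR45947 inside kl-3. It places no other gene inside kl-5. Whether the authors' counting used strand is not given in the sources used here.

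Library totals ran from 6026258 to 15363636 counts, and no pair of replicates agreed within sampling noise. Markers of the labelled tissues were present: 8 ovary markers summed to 7943 to 13425 CPM (counts scaled to library size) in ovaries, and 5 neural and glial markers to 1216 to 1818 CPM in the CNS. The same 8 ovary markers summed to 13737 to 29199 CPM in female bodies, so their sum does not set ovaries apart from whole females. In testes, 6 spermatocyte markers summed to 1796 to 2536 CPM and 7 spermatid markers to 7100 to 16255 CPM. The testis libraries also held 31190 to 50421 CPM of 6 accessory gland genes, against 3878 to 8737 CPM in male bodies. Mitochondrial genes took 25.2% and 9.26% of the counts in XX bodies, 33.2% and 5.21% in XXYohio bodies, and 25.4% and 33.5% in XXYcongo bodies. Among male bodies, replicate 2 of XYYcongo stood apart, with 40.1% of its counts from mitochondrial genes. It held 5143 CPM of spermatid markers, against 694 to 1261 CPM in the other 5 male bodies. Its spermatocyte markers summed to 248 CPM, against 409 to 686 CPM in those 5. The same 6 markers summed to 117 to 225 CPM in ovaries and 60.2 to 210 CPM in female bodies, so their sum is not specific to spermatocytes. The level of FDY, a Y gene that is also read outside the testis, was 0.418 CPM in XX bodies, 12.2 CPM in XXYohio bodies and 9.50 CPM in XXYcongo bodies.

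All 3 genes were highest in testis, lower in whole male bodies, and at or near 0 counts in every female library. In testes, kl-2 was at 188 and 168 CPM in the XY libraries, 226 and 270 CPM in XYYohio, and 173 and 254 CPM in XYYcongo. kl-3 was at 316 and 217 CPM in XY, 354 and 360 CPM in XYYohio, and 235 and 364 CPM in XYYcongo. kl-5 was at 268 and 215 CPM in XY, 417 and 449 CPM in XYYohio, and 272 and 493 CPM in XYYcongo. For each gene the lowest testis value belonged to an XY library, and the highest to an XYY library. The group means in XY testes were 178 ± 14.6 CPM for kl-2, 266 ± 69.9 CPM for kl-3 and 241 ± 37.0 CPM for kl-5 (SD, n = 2).

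In whole male bodies, which contain the testes, kl-2 was at 17.6 and 28.8 CPM in XY, 26.9 and 16.2 CPM in XYYohio, and 28.7 and 57.9 CPM in XYYcongo. kl-3 was at 25.2 and 43.3 CPM in XY, 39.3 and 21.3 CPM in XYYohio, and 38.8 and 43.7 CPM in XYYcongo. kl-5 was at 31.0 and 46.2 CPM in XY, 49.2 and 31.4 CPM in XYYohio, and 58.5 and 71.6 CPM in XYYcongo. No body library reached the testis range: the highest body value of any of the 3 genes was 71.6 CPM and the lowest testis value was 168 CPM. The highest kl-2 and kl-5 values among bodies, 57.9 and 71.6 CPM, both came from the XYYcongo replicate with many mitochondrial reads.

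**Figure D1:**
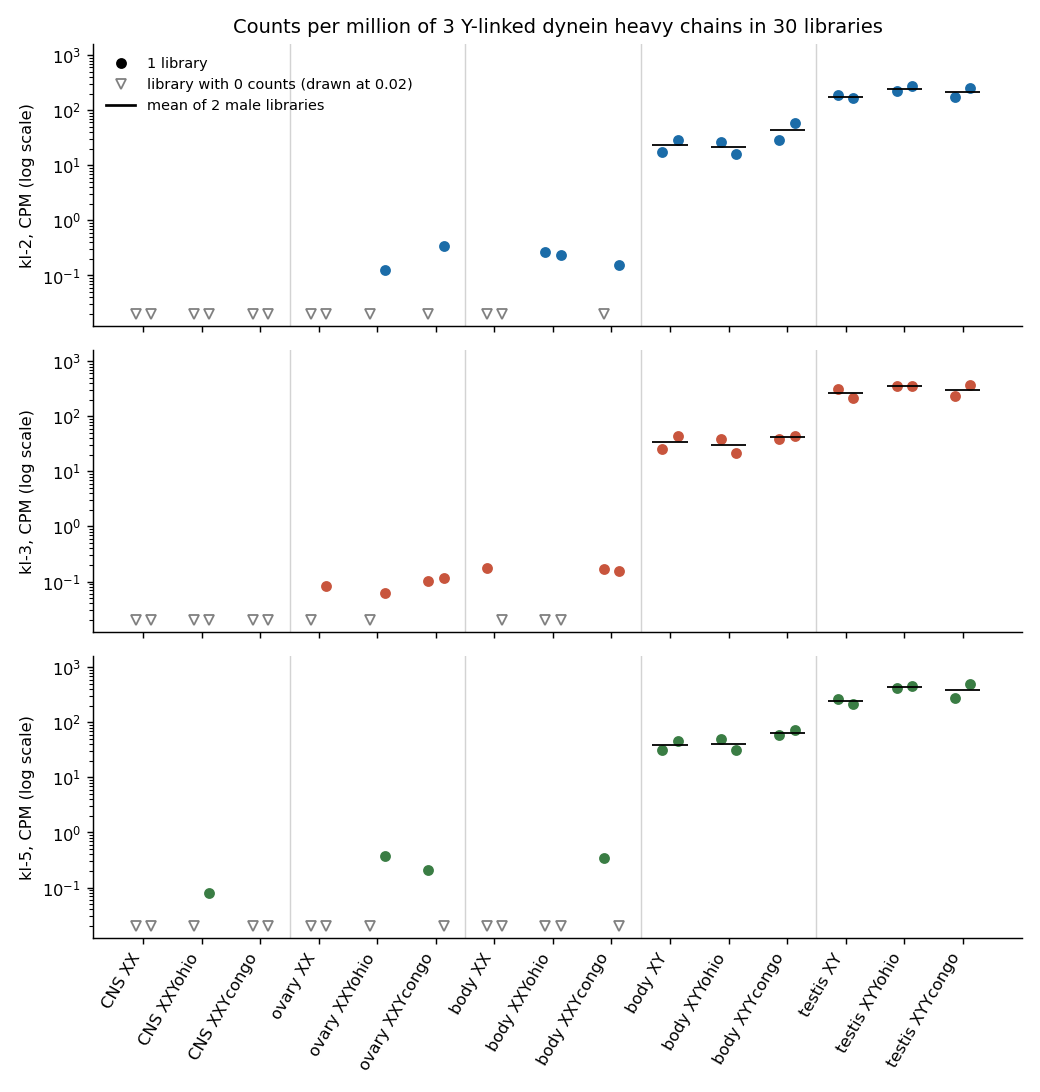
CPM (log axis) of kl-2, kl-3 and kl-5 in each of the 30 libraries, by tissue and genotype; filled points are single libraries, open triangles are libraries with 0 counts, and bars are means of the 2 libraries of a male group. Testis libraries lie at 168 CPM or more and male bodies between 16.2 and 71.6 CPM, while no female library passes 0.373 CPM.

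The testis excess over the male body passed the test for all 3 genes in all 3 genotypes. In XY males the log2 fold change was 2.54 ± 0.42 (SE) for kl-2, 2.57 ± 0.40 for kl-3 and 2.25 ± 0.38 for kl-5. In XYYohio males it was 3.05 ± 0.43, 3.09 ± 0.41 and 2.95 ± 0.39 in the same order. In XYYcongo males it was 1.81 ± 0.41, 2.37 ± 0.40 and 2.07 ± 0.37, and without the XYYcongo body library that stood apart it was 2.37, 2.43 and 2.18. The 9 adjusted p-values of edgeR's quasi-likelihood test, with Benjamini-Hochberg adjustment over all 13831 genes tested, lay between 0.00013 and 0.0028. Of all genes tested, 54% were called in either direction in XY males, 56.7% in XYYohio males and 61.3% in XYYcongo males, and 25.5%, 26.9% and 29.3% were called higher in testis. The median log2 fold change over all genes in XY males was 0.03. In the same XY contrast 5 of 6 spermatocyte markers rose, with a median of 1.74, and 6 of 7 spermatid markers rose, with a median of 2.12. In these bulk samples more cells of a type and more RNA per cell cannot be told apart.

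Female libraries held almost no reads of the 3 genes, whether or not they carried a Y. Of the 54 values (3 genes in 18 libraries), 38 were 0 counts, the largest was 6 counts, and the highest level was 0.373 CPM. The lowest male count was 125, for kl-2 in XY body replicate 1, and the lowest male level was 16.2 CPM, for kl-2 in XYYohio body replicate 2, so the sexes did not overlap. A count of 0 allows a level of up to 0.171 to 0.462 CPM in these female libraries, taking 3 counts as the limit. This limit, like the counting intervals below, covers counting error only.

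Among the 6 female libraries with no Y, 3 reads were counted over the 3 genes: 2 in 1 XX body and 1 in 1 XX ovary, all of them on kl-3. Among the 12 with a Y, 33 reads were counted, of which 13 were on kl-2, 7 on kl-3 and 13 on kl-5. Ovaries with a Y held 20 of these reads, and 17 of the 20 came from 2 libraries, 9 from XXYohio replicate 2 and 8 from XXYcongo replicate 2. The other ovary libraries with a Y held 0 and 3 reads. Bodies with a Y held between 2 and 6 reads per library, and the 4 CNS libraries with a Y held 1 read in all, on kl-5. FDY was read in the same ovaries at 44.4 CPM in XXYohio and 39.4 CPM in XXYcongo. Its fitted log2 fold changes against XX were 4.34 and 4.18 in these ovaries. In the CNS they were smaller, at 1.32 for XXYohio and 1.11 for XXYcongo, so FDY marks the added Y less clearly there. Spermatid markers, which would show testis RNA, summed to 0.19 and 1.06 CPM in XX ovaries and to between 0.10 and 1.19 CPM in the ovaries with a Y; their part in these reads was not tested.

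The 3 genes did not pass the filter on low counts in the female comparisons. Fitted with no filter, the added-Y and between-Y contrasts of females called 0 of 21 gene contrasts, with unadjusted p-values from 0.156 up and a lowest adjusted p of 0.709 (edgeR). None of the 21 had an unadjusted p under 0.05. In the CNS only kl-5 was fitted, as kl-2 and kl-3 had 0 counts in every CNS library. For kl-5, XXYohio against XX bodies and XXYcongo against XX CNS set 0 counts against 0, so those outcomes were fixed. In these unfiltered fits the share of all genes called in bodies was 0.4% for XXYohio, 0.331% for XXYcongo and 0.117% between the added Ys. In the same order it was 0.725%, 2.01% and 1.23% in ovaries and 1.89%, 0.645% and 1.69% in the CNS. The design had little depth for a difference here, so a rise of kl reads in females with a Y was not detectable by this test, which does not show that it is absent.

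Against female bodies, XY male bodies were higher in all 3 genes, also where the females carried a Y by their labels. Against XX females, kl-2 was at least 76.6-fold higher and kl-5 at least 127-fold higher, taking 3 counts per library for the female 0, and kl-3 was 357-fold higher (95% counting interval 98.4 to 2954). Against XXYohio females, kl-2 was 94.2-fold higher (36.5 to 348), kl-3 at least 89.6-fold higher and kl-5 at least 101-fold higher. Against XXYcongo females the ratios were 435 for kl-2 (77.6 to 17225), 215 for kl-3 (73.0 to 1043) and 180 for kl-5 (69.8 to 661). All 9 differences were called by edgeR's quasi-likelihood test, with adjusted p-values from 8.2e-06 to 4.1e-05. Of 13318 genes, 35.1%, 50.8% and 47.4% were called and 22.7%, 31.1% and 28.3% were called higher in males. The 3 genes passed the filter on low counts in this fit only through the male libraries, so these calls add no support to the counts.

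XY testes against ovaries gave wider ratios. Against XX ovaries, kl-2 was at least 675-fold higher and kl-5 at least 915-fold higher, and kl-3 was 5895-fold higher on 1 ovary read, with a counting interval of 1057 to 232903. Against XXYohio ovaries the ratios were 2361 for kl-2 (653 to 19508), 6913 for kl-3 (1240 to 273136) and 1059 for kl-5 (486 to 2888). Against XXYcongo ovaries they were 798 for kl-2 (366 to 2176), 2335 for kl-3 (799 to 11329) and 3220 for kl-5 (891 to 26600). All 9 were called by edgeR, with adjusted p-values from 1.3e-08 to 2.5e-07. Of 13130 genes, 73.5%, 74.5% and 73.6% were called and 47.5%, 48.5% and 48.1% were called higher in testis. Here too the 3 genes passed the filter only through the testis libraries, so these calls add no support to the counts. Where a fold rests on 1 to 3 female reads these can all come from 1 library: both kl-3 reads of XX bodies were in replicate 1. The median log2 fold change over all genes tested against XX ovaries was 0.82.

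The study's own contrast in males sets an XYY group against XY. In testes, all 3 genes were higher in both XYYohio libraries than in both XY libraries, by 1.39-fold for kl-2, 1.34-fold for kl-3 and 1.79-fold for kl-5 in the ratio of means. Such a gap between the groups in this direction was seen for 20.4% of the 12743 genes tested. The fitted log2 fold changes were 0.45 for kl-2 (95% interval -0.10 to 1.00), 0.39 for kl-3 (-0.26 to 1.05) and 0.81 for kl-5 (0.13 to 1.50). None was called after adjustment (adjusted p = 0.974 for each, edgeR), where 0% of genes were called. kl-5 had an unadjusted p of 0.026, as 370 of the 12743 genes had one under 0.05. DESeq2 called 1 gene, which was none of the 3. Without XY replicate 2, kl-3 was at 0.13.

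XYYcongo testes overlapped with XY testes for kl-2 and kl-3 and not for kl-5, for which both libraries were higher, as was so for 14% of the genes tested. The log2 fold changes were 0.23 for kl-2 (-0.32 to 0.77), 0.13 for kl-3 (-0.52 to 0.78) and 0.62 for kl-5 (-0.06 to 1.31). None was called (adjusted p = 1.00 each, edgeR), where 0% of genes were called, with 291 under 0.05 before adjustment and 6 called by DESeq2. Here 1 library set the direction: without XYYcongo replicate 2, kl-2 and kl-3 were at -0.05 and -0.19, and without XY replicate 2 kl-3 was at -0.13. The corresponding kl-5 value ranged from 0.16 to 0.97 as each library was left out. In the authors' deposited table for XYYcongo testes, kl-5 had a log2 fold change of 0.46, a p-value of 0.117 and an adjusted p of 1.00.

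Between the 2 added Y chromosomes, the testis values of XYYcongo minus XYYohio were -0.22 for kl-2, -0.26 for kl-3 and -0.19 for kl-5 (log2), with overlap for each gene, where 22% of genes did not overlap and were higher in XYYcongo. None was called (edgeR), where 0% of genes were called, with 474 under 0.05 before adjustment and 9 called by DESeq2. Without XYYcongo replicate 1 these values were 0.0078, 0.00082 and 0.16.

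A change of 1 on the log2 scale, which is what RNA in proportion to Y number would give, lay inside the 95% interval in testes for kl-3 and kl-5 in XYYohio and for kl-5 in XYYcongo. No change, a log2 value of 0, lay inside it for kl-2 and kl-3 in XYYohio and for all 3 genes in XYYcongo. The kl-2 interval in XYYohio ended just below 1, at 0.9991. The intervals of kl-3 in XYYohio and of kl-5 in XYYcongo held both values. Accessory gland markers summed to 38687 and 43210 CPM in XY testes, 50421 and 48091 CPM in XYYohio, and 31190 and 37460 CPM in XYYcongo. Spermatocyte markers summed to 2276 and 1796 CPM, 2233 and 2337 CPM, and 2536 and 2509 CPM in the same order. The 2 XY libraries differed most in spermatid markers, at 7217 and 16255 CPM, and all 3 kl genes were lower in the second. Spermatid markers summed to 8215 and 7204 CPM in XYYohio testes, and to 12845 and 7100 CPM in XYYcongo testes. In XYYcongo all 3 kl genes were lower in the first library, which held more spermatid marker RNA. The part of tissue makeup in these differences was not tested.

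**Figure D2:**
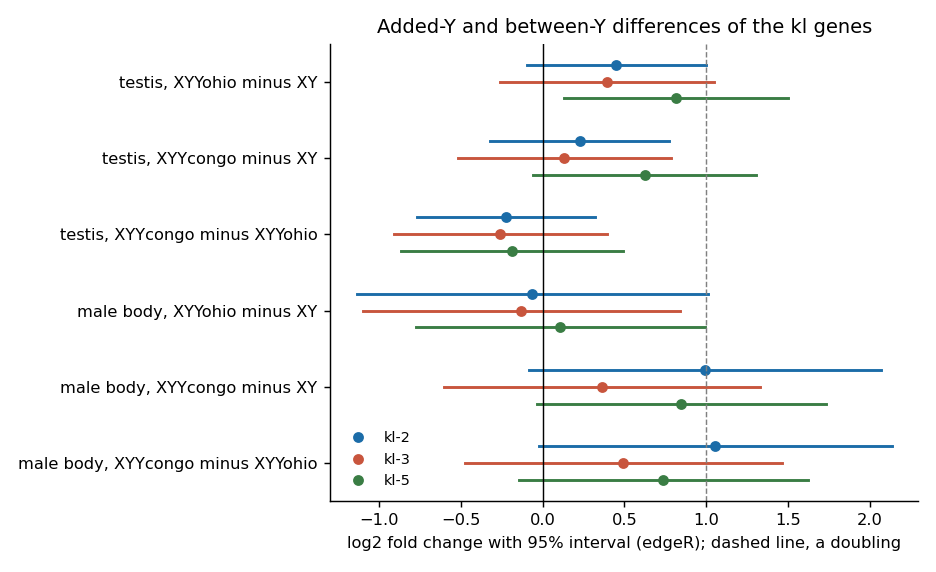
Log2 fold changes of kl-2, kl-3 and kl-5 (points) with 95% intervals (lines) from edgeR, for each added Y against XY and for the added Ys against each other, in testes and male bodies; the dashed line marks a log2 value of 1. Only kl-5 in XYYohio testes has an interval, 0.13 to 1.50, that leaves out 0.

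In male bodies, XYYohio and XY overlapped for all 3 genes, where 7.41% of the 12889 genes tested did not overlap and were higher in XYYohio. The share that was lower in XYYohio was not computed. The log2 fold changes were -0.06 ± 0.47 for kl-2, -0.13 ± 0.43 for kl-3 and 0.11 ± 0.39 for kl-5 (SE). No gene was called (0%, edgeR), with 60 under 0.05 before adjustment and 0 called by DESeq2. The sign of each of the 3 depended on single libraries. Without XY replicate 2, kl-2 was at 0.32 and kl-3 at 0.30, and without XYYohio replicate 2 they were at 0.25 and 0.23. kl-5 was at -0.14 without XY replicate 1 and at -0.23 without XYYohio replicate 1. A log2 value of 1 lay outside the 95% intervals of kl-3 (-1.10 to 0.84) and kl-5 (-0.77 to 0.99) and inside that of kl-2 (-1.14 to 1.01), and 0 lay inside all 3.

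XYYcongo bodies had higher means than XY bodies, with log2 fold changes of 0.99 for kl-2 (-0.08 to 2.07), 0.36 for kl-3 (-0.61 to 1.33) and 0.85 for kl-5 (-0.04 to 1.73). These 3 intervals each held both 0 and 1. kl-5 was higher in both XYYcongo libraries than in both XY libraries, as was so for 12.6% of genes, and kl-2 and kl-3 overlapped. None was called (adjusted p = 0.659, 0.808 and 0.656, edgeR), where 0% of genes were called, with 953 under 0.05 before adjustment and 14 called by DESeq2. Without the XYYcongo library that stood apart, the values were 0.39 for kl-2, 0.27 for kl-3 and 0.69 for kl-5. The kl-3 value was 0.036 without XY replicate 1 and 0.79 without XY replicate 2. Against XYYohio bodies, XYYcongo bodies were at 1.06 for kl-2, 0.49 for kl-3 and 0.74 for kl-5, and at 0.46, 0.40 and 0.59 without that library. kl-2 and kl-5 did not overlap in this comparison, as was so for 16% of genes. None was called (edgeR), where 0% of genes were called, with 856 under 0.05 before adjustment and 16 called by DESeq2.

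Whether an added Y acted differently on these genes in testis and body was tested in 1 fit of the 12 male libraries. For Yohio the testis effect minus the body effect was 0.51 ± 0.57 for kl-2, 0.52 ± 0.54 for kl-3 and 0.70 ± 0.51 for kl-5 (log2, SE). As each library was left out these ranged from 0.12 to 0.91, 0.093 to 1.02 and 0.40 to 1.05. For Ycongo it was -0.73 ± 0.57, -0.19 ± 0.54 and -0.19 ± 0.51, or -0.14, -0.11 and -0.04 without the body library that stood apart. No gene was called in either test (0%, edgeR); 240 and 1104 of the 13831 genes had an unadjusted p under 0.05, none of them a kl gene, and DESeq2 called 0 and 12.

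Ratios among the 3 genes within a library do not depend on the scaling between libraries. Per kilobase of coding length, XY testes held 13.3 ± 1.09 CPM of kl-2, 19.3 ± 5.08 of kl-3 and 17.7 ± 2.70 of kl-5 (SD, n = 2). kl-2 was the lowest of the 3 in all testis libraries, with 23.1% to 28.5% of their sum. kl-5 took 34.6% and 35.8% of the sum in XY testes, 41.7% and 41.5% in XYYohio testes, and 39.9% and 44.2% in XYYcongo testes. The 4 XYY testis libraries thus lay above the 2 XY ones. The mean ratio of kl-5 to kl-3 was 0.927 ± 0.104 in XY, 1.22 ± 0.05 in XYYohio and 1.26 ± 0.14 in XYYcongo testes. Both XYY groups are set against the same 2 XY libraries, where this ratio was 0.854 and 1.00. For CPM of single genes, such a gap was seen in 20.4% of genes for XYYohio and 14% for XYYcongo. How often the shares of other genes part the groups was not computed. The kl shares were looked at after the single-gene values and were given no test.

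Male bodies showed kl-5 as the largest share in all 6 libraries, at 38.9% to 46.3%, and XY bodies, at 41.9% and 38.9%, lay above XY testes. The XYYcongo body library that stood apart also departed here: kl-2 took 34.0% of the sum in it, against 23.2% to 24.9% in the other 5 bodies. Its kl-3 to kl-2 ratio was 0.733, where the other 11 male libraries had 1.26 to 1.63.

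**Figure D3:**
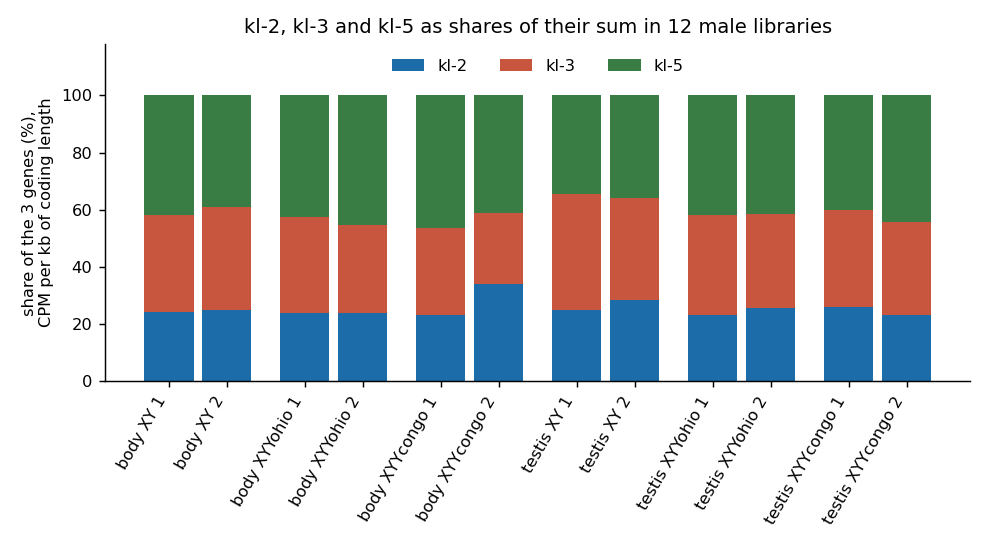
Shares (%) of kl-2, kl-3 and kl-5 in their summed CPM per kilobase of coding length, 1 bar for each of the 12 male libraries. kl-5 holds 34.6% and 35.8% in the XY testes and 39.9% to 44.2% in the 4 XYY testes, and kl-2 holds 34.0% in replicate 2 of the XYYcongo bodies.

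Set beside the other dynein heavy chains, the Y-linked ones were of middle abundance in the testis. Of 8 other axonemal heavy chain genes in the list, 6 were matched to a row, and Dhc16F and CG9492 were not. Per kilobase of coding length in XY testes the order was Dhc36C (44.7 CPM), Dnah3 (29.9), Dhc98D (22.2), kl-3 (19.3), Dhc62B (18.0), the cytoplasmic heavy chain Dhc64C (17.7), kl-5 (17.7) and kl-2 (13.3). Far below these came btv (1.21), the heavy chain of the retrograde ciliary transport motor, CG3339 (1.21) and Dhc93AB (0.016). Neighbours from Dhc98D to kl-5 overlapped between their libraries, while kl-2 lay below both kl-5 libraries and above both btv libraries. Among the 12676 protein-coding genes read in XY testes, kl-2 stood above 48.4%, kl-3 above 55.9% and kl-5 above 54.2% on the same per-length scale.

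In XY bodies the order changed: kl-5 (2.82 CPM per kilobase), kl-3 (2.49) and kl-2 (1.74) came after Dhc64C (18.3), Dhc36C (12.2), Dnah3 (6.63), Dhc98D (5.14) and Dhc62B (5.01). kl-3 overlapped there with kl-5 and with kl-2, while kl-5 lay above kl-2 in both libraries, and both libraries of Dhc62B lay above both of kl-5. Together the 3 made up 17.5% and 19.6% of the summed per-length level of the 9 axonemal heavy chains matched (Dhc16F and CG9492 left out) in XY bodies, and 32.9% and 27.3% in XY testes. In XYYohio testes this share was 42.1% and 40.3%, and in XYYcongo testes 30.3% and 34.7%. In XYYohio bodies it was 23.98% and 16.1%, and in XYYcongo bodies 18.2%, and 38.1% in the library that stood apart. This share was also computed after the levels had been seen, and was not tested.

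Of the other axonemal heavy chains, 5 of 6 rose from body to testis in XY males and 1 fell (median log2 fold change 1.47, against 0.03 for all genes, of which 25.5% were called higher). Dnah3 rose by 1.78 ± 0.36, Dhc98D by 1.72 ± 0.33, Dhc36C by 1.49 ± 0.37, Dhc62B by 1.46 ± 0.41 and CG3339 by 0.96 ± 0.37 (log2, SE), with adjusted p-values from 0.0015 to 0.047 (edgeR). The kl values in that contrast were 2.25 to 2.57, and a difference between the genes was not tested. The gene that fell was Dhc93AB, an outer-arm heavy chain used in fly chordotonal sensory neurons. It had 244 counts in the 2 XY bodies and 4 counts in the 2 XY testes, and its fitted log2 fold change was -6.17 ± 0.73 (adjusted p = 9.3e-05, edgeR). Dhc93AB passed the filter on low counts in this fit through the body libraries, so its call adds no support to the counts. The cytoplasmic chains were not called: Dhc64C was at -0.43 ± 0.42 and btv at 0.32 ± 0.39.

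**Figure D4:**
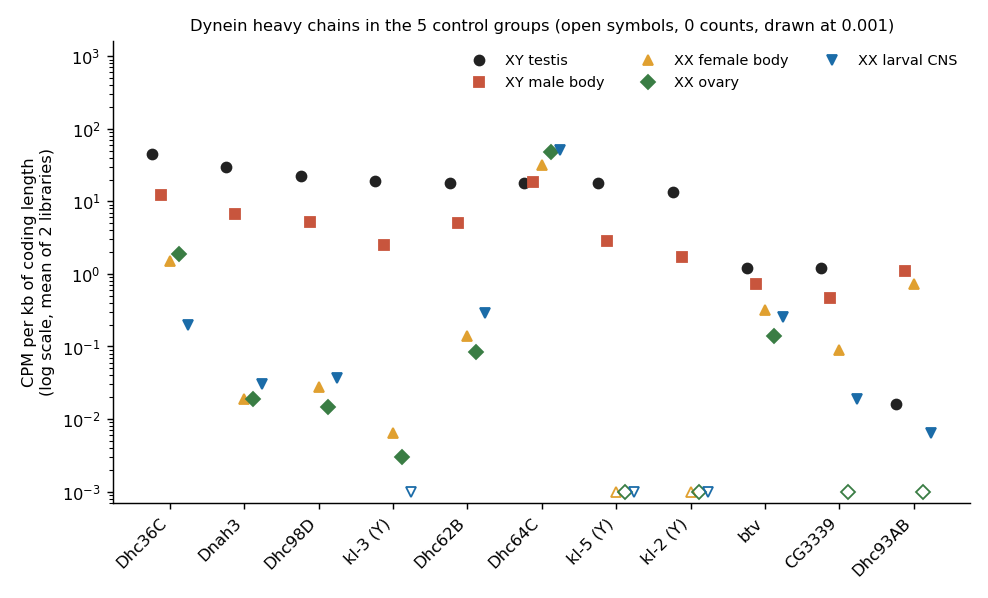
Mean CPM per kilobase of coding length (log axis, 2 libraries a group) of 9 axonemal and 2 cytoplasmic dynein heavy chains in the 5 control groups, ordered by their level in XY testes; open symbols are groups with 0 counts. The Y-linked kl-3, kl-5 and kl-2 stand at 19.3, 17.7 and 13.3 in testes, and Dhc93AB is the axonemal chain that is higher in the body than in the testis.

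With an added Y in testis, 0 of 5 other axonemal heavy chains tested were called in either contrast (edgeR, 0 with an unadjusted p under 0.05), and Dhc93AB did not pass the filter. Their log2 fold changes lay between -0.27 (Dnah3) and 0.06 (Dhc62B) in XYYohio, with 1 of 5 above 0, and between 0.02 (CG3339) and 0.35 (Dhc62B) in XYYcongo. The medians were -0.06 and 0.13, against -0.01 and -0.0029 for all genes and 0.45 and 0.23 for the 3 kl genes. These contrasts share their XY libraries.

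The heavy chains work with intermediate and light chains. Of 12 such genes, all were matched to a row, 9 were tested in males, and 7 rose from XY body to XY testis (median 1.50), where 25.5% of all genes were called higher. Among the 4 most abundant in testis, the light chain gene Dnali1 rose by 2.08 ± 0.38, the sperm-specific intermediate chain Sdic1 by 1.78 ± 0.38, and the intermediate chain genes CG9313 and CG10859 by 1.69 ± 0.31 and 1.59 ± 0.52. Dic61B, Sdic3 and Sdic4 rose by 1.33 to 1.50. The Sdic genes are near-identical tandem copies, so the split of reads among them is uncertain. None of the 9 was called for an added Y in testis, where their medians were -0.04 in XYYohio and -0.01 in XYYcongo.

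Other genes act in the preassembly and docking of dynein arms, and a list of 15 was set for them. The role of each listed gene, Gas8 among them, was not checked here. Of 15, 14 were matched to a row, 13 were tested, and 12 rose from XY body to XY testis (median 1.96), against 25.5% of all genes. Spag1 rose by 2.40 ± 0.48, wam, which is needed for sperm outer arms, by 2.03 ± 0.33, and dtr, the Dnaaf1 counterpart, by 1.99 ± 0.30. Nop17l, the fourth most abundant, was at -0.01 ± 0.48 and was not called. The other 9 (Pih1D1, Wdr92, Zmynd10, tilB, TbCMF46, Dnaaf4, Gas8, Dnaaf3 and Ccdc114) rose by 0.83 to 3.36. With an added Y in testis none was called, and the medians were -0.27 in XYYohio, with 2 of 13 above 0, and 0.15 in XYYcongo, with 9 of 13 above 0.

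Of 4 genes tied to the RNA of the Y loops or its later handling, 3 rose from XY body to XY testis, against 25.5% of all genes. blanks, an RNA-binding protein needed for Y-loop gene expression, rose by 1.85 ± 0.25, and the ATPases pont and rept, found with kl-3 and kl-5 RNA in cytoplasmic granules, rose by 1.35 ± 0.43 and 1.29 ± 0.44. heph, a polypyrimidine tract-binding protein that acts in the same spermatocytes, was at 0.21 ± 0.31. blanks stood at 133 and 138 CPM in XY testes and at 147 and 148 CPM in XYYohio testes, a log2 fold change of 0.09 ± 0.17. In XYYcongo testes it was at 136 and 145 CPM, a log2 fold change of 0.02 ± 0.17. The values of the other 3 lay between 0.01 and 0.36 over both contrasts, and none was called.

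The spermatocyte transcription machinery, made up of the tMAC complex and the testis TAFs, includes 11 listed genes, and 10 of the 11 rose from XY body to XY testis (median 1.69), against 25.5% of all genes. The tMAC members vis and topi rose by 1.63 ± 0.25 and 2.01 ± 0.33, and the testis TAFs can and Taf12L by 1.85 ± 0.31 and 2.17 ± 0.35. achi, comr, mia, aly, nht and sa rose by 0.85 to 2.09, and tomb was at 0.92 ± 0.61 and was not called. None of the 11 was called for an added Y in testis, with medians of -0.04 in XYYohio and 0.06 in XYYcongo.

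The other Y genes share the change in gene number. Of the 17 other protein-coding Y genes with a row, 9 were in the list and the other 8, among them 4 Mst77Y copies, were not examined. In XYYohio testes all 9 listed had a log2 fold change above 0, from 0.21 (ORY) to 1.85 (PRY), with a median of 0.93, while 48.8% of all genes were above 0. None was called, and 5 of the 9 (Pp1-Y1, ARY, Pp1-Y2, FDY and PRY) had an unadjusted p under 0.05, as had 370 of all 12743 genes. In XYYcongo testes 7 of 9 were above 0, with a median of 0.50, against 49.6% of all genes, and 3 (ARY, Pp1-Y1 and FDY) had an unadjusted p under 0.05, as had 291 of all genes. The kl values of 0.39 to 0.81 and 0.13 to 0.62 lay within these ranges. In XYYohio testes the value nearest to that of kl-2 was that of WDY (0.49 ± 0.23), the nearest to kl-3 was that of Ppr-Y (0.32 ± 0.21) and the nearest to kl-5 was that of Pp1-Y1 (0.93 ± 0.32).

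From XY body to XY testis, where 25.5% of all genes were called higher, 7 of the 9 other Y genes rose: ORY, which like kl-3 and kl-5 forms a Y loop, by 2.94 ± 0.59, Ppr-Y by 2.39 ± 0.52, ARY by 2.25 ± 0.63, CCY by 1.81 ± 0.36, PRY by 1.68 ± 0.60, Pp1-Y2 by 1.43 ± 0.55 and WDY by 1.24 ± 0.37. FDY, at 0.84 ± 0.51, and Pp1-Y1, at 1.69 ± 0.77, were not called. Of the 9, ORY alone had a value above those of all 3 kl genes (2.25 to 2.57), and this order was not tested. Per kilobase of coding length in XY testes, ARY (95.2 CPM), Pp1-Y2 (49.3) and Ppr-Y (25.3) lay above all 3 kl genes, and Pp1-Y1 (12.6), WDY (11.4), FDY (9.53) and PRY (5.02) below them. In XXYohio and XXYcongo females, FDY was the only one of the 9 that passed the filter on low counts, in bodies, ovaries and the CNS.

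**Figure D5:**
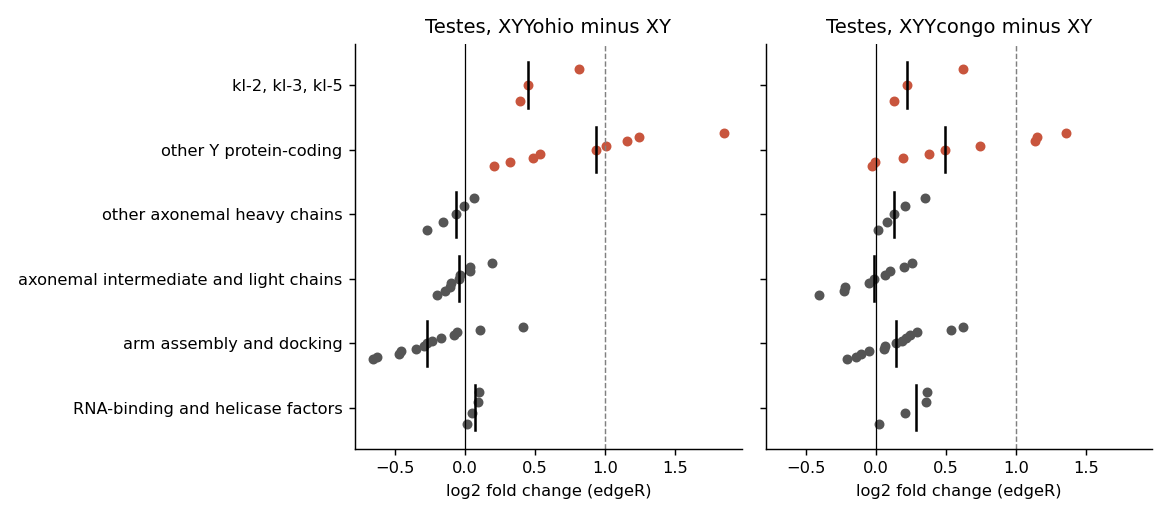
Log2 fold changes (edgeR) in testes of XYYohio and XYYcongo against the shared XY controls, 1 point a gene, for the 3 kl genes, 9 other Y genes and 4 lists of genes on other chromosomes; black bars are medians and the dashed line marks a log2 value of 1. The kl medians are 0.45 and 0.23 and those of the 9 other Y genes 0.93 and 0.50, while the lists' medians lie between -0.27 and 0.28.

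Genes with the most similar profile were ranked by Pearson's r of log2(CPM + 1) over the 15 group means, among 12427 other genes with at least 1 CPM in XY testes. This measure is set by the steps from female tissues to male body to testis, which very many genes share: 1082 genes had an r of at least 0.99 with kl-2, 1330 with kl-3 and 1158 with kl-5. The 5 most like kl-3 were CG42685, the Y gene CCY, ms(2)35Ci, CG15539 and CG14362. The 5 most like kl-2 were CG15262, CG43449, CG17287, Ran-like and lncRNA:CR43239, and the 5 most like kl-5 were CG15278, CG43449, CCY, CG30048 and asRNA:CR43160. The r values of these genes lay between 0.9989 and 0.9997, and 2 of the 15 places were kept with a pseudocount of 0.1 and 0 with Spearman's rank. The kl genes ranked between 9 and 71 in each other's lists, with r of 0.999. With a pseudocount of 0.1 these ranks were 17 to 742, and by Spearman's rank 295 to 1357, with rho of 0.866 to 0.894.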

How the data were processed

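The values used are raw counts per gene in 1 file per library, deposited by the authors and keyed by FlyBase ID. Trim Galore, Bowtie2, SAMtools, DESeq2 1.8.1 and R 3.2.3 were used, per the submitters' processing notes. Which build, counter and strand setting made the counts is not given in the sources used here. Per the labels' protocols, mRNA was selected with poly-T beads and sequenced in pairs. The authors also deposited tables of log2 fold changes and p-values for each added Y against its control, of which 1 is quoted, where named. Those named for a Y that the labels do not name were not used.

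Symbols, positions and lengths came from Ensembl release 115 (BDGP6.54), which placed 16649 of the 16868 IDs. Coding length is the summed coding exons. Levels are CPM on library sizes scaled by TMM over all 30 libraries, and a count of 0 was given a limit of 3 counts. Tests used edgeR 4.0.16 in R 4.3.3 (glmQLFit, TMM, filterByExpr with a minimum count of 10, Benjamini-Hochberg over all genes tested, called at 0.05): 5 fits of the 6 libraries of a tissue and sex, and fits of the 12 male, 12 body and 12 gonad libraries. Intervals are 95% intervals; those of folds against females are exact binomial ones for counts. P-values measure the spread between libraries, which the labels do not tie to separate animals. The scripts were tested on simulated data.

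Alternatives were DESeq2 1.42.0, another scaling, no filter, fewer libraries in the fit, the replicate number as a block, mitochondrial genes left out, each library left out, exon length, and other likeness measures. Described were all 3 genes, the 4 members of each list most abundant in XY testes, list members that passed the test beside a kl gene, and the 5 genes most like each. The members and gene lists were chosen with earlier results of these data known. No sequence is shown, and a planned search of proteins and promoters was not done. Dhc16F, CG9492, Heatr2, nos, vas and para were not matched to a row. The authors' 5 combined tables were not used.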

Additional observations from a re-analysis of the deposited data

How the results depend on the processing

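For the 3 kl genes, 51 contrasts were refitted under the alternatives, giving 534 values. The 27 contrasts called in the main test kept their direction under every alternative run. They stayed called in the alternatives that kept both libraries of each group. Of these contrasts, 9 set testis against male body, 9 XY male against female bodies and 9 XY testes against ovaries. In the contrasts against females the genes passed the filter only through the male libraries, so their staying called is no further support. The 24 added-Y contrasts stayed uncalled, with a smallest adjusted p of 0.194. In those, 18 values changed sign, 17 of them as 1 library was left out. Leaving out each library, XYYohio minus XY in bodies ranged from -0.45 to 0.32 for kl-2, -0.62 to 0.30 for kl-3 and -0.23 to 0.41 for kl-5. XYYcongo minus XY in testes ranged from -0.051 to 0.46 for kl-2 and -0.19 to 0.44 for kl-3. XYYcongo minus XYYohio in testes ranged from -0.50 to 0.0078 for kl-2, -0.58 to 0.00082 for kl-3 and -0.65 to 0.16 for kl-5. The Ycongo effect in testis minus that in body ranged from -0.62 to 0.14 for kl-3 and -0.66 to 0.14 for kl-5. With the replicate number as a block, kl-2 in XYYohio bodies went from -0.06 to 0.015. Same-numbered libraries of a tissue did not deviate together throughout (correlations from -0.42 to 0.64), and the block changed no other call or direction of a kl gene. With 1 library of a group left out, the lone library is assumed to vary like the other groups. Merged exon length in place of coding length moved no share beyond its spread. With a pseudocount of 0.1, the 5 genes most like kl-3 shared 2 with the main choice and those of kl-2 and kl-5 shared 0; by Spearman's rank each shared 0. The depth limits the female comparisons, where single reads decide the values: leaving out 1 female library moved fitted log2 differences by up to several units, as from 6.51 to 11.2 for kl-5 in XXYcongo bodies.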
